A study of Drosophila melanogaster with 164 samples.

Results

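The mitochondrial ribosomal protein genes were taken as every gene of the deposited count table whose FlyBase symbol begins with mRpL (large subunit) or mRpS (small subunit). The rule found 71 of the 7414 genes in the table, 46 of the large subunit and 25 of the small subunit, out of 73 such symbols in the annotation. Genes mRpL53 and mRpS5 were not matched and are not analysed here. The lowest count of any member in any library was 13, so each member was measured in every library.

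RNA came from whole bodies of 41 inbred Drosophila melanogaster lines of the Drosophila Genetic Reference Panel (DGRP), a set of lines derived from 1 outbred population, with 2 biological replicates per line and stage. Adults were collected over the 48 hours after the first to emerge in a vial had been removed, and kept 4 days before freezing, and their sex is not given in the labels. Larvae were feeding, unsexed animals of the last instar, taken from the medium once the first wandering larva of the vial appeared. All animals were reared at 25 °C, and each library pooled 2 to 31 animals from 2 vials, with a median of 17 adults or 20 larvae. The lines had been chosen without inversions and across a range of starvation resistance, and the series addresses how far adult and larval expression vary independently among lines.

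The mitochondrial ribosome translates the few messages of the mitochondrial genome, which encode core subunits of the respiratory chain and ATP synthase. Its RNA is made in the mitochondrion, whereas all of its proteins are encoded in the nucleus, made on cytoplasmic ribosomes and imported. In Drosophila the members are spread over the major chromosomes, here with 11 on X, 12 on 2L, 11 on 2R, 16 on 3L and 21 on 3R.

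Library totals ran from 2748964 to 20421026 counts in adults (median 8670311) and from 2407244 to 26429404 in larvae (median 10533564). Counts labelled as DGRP787 larvae, replicate 1, were identical to those labelled as DGRP491 larvae, replicate 2, and both were left out, which left 82 adult and 80 larval libraries. These counts matched adults of DGRP491 (r = 0.618) and not those of DGRP787 (r = -0.015) over 308 genes with high heritability in adults. Larvae of DGRP491 then rest on 1 library, which also stands apart and gave the lowest larval mean for 17 members. The larval libraries labelled DGRP882, DGRP897 and DGRP911 replicate 2 each matched adults of another line better than adults of their own over the same genes, with r of 0.474 to 0.649 against -0.063 to 0.019. Larvae of DGRP367, replicate 1, had close values for DGRP804 (0.323) and for their own line (0.268), and were kept. A further 7 libraries, 4 adult and 3 larval, departed from their stage's median profile by a median of more than 0.3 log2 units over all genes: DGRP59, DGRP142, DGRP149 and DGRP897 replicate 1 in adults, and DGRP235, DGRP491 and DGRP882 replicate 1 in larvae. Calls of line differences, interactions and correlations are given below with and without the libraries that stand apart. Adults and larvae were sequenced in separate pools, so stage and pool cannot be told apart.

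The mitochondrial ribosomal protein genes were lower in adults than in larvae as a group, by amounts that were modest for single genes. Of the 71 members, 2 were higher in adults, 68 were lower in adults and 1 did not pass (F test of edgeR's quasi-likelihood fit, blocked by line, with a Benjamini-Hochberg adjusted p under 0.05 over all 7414 genes). Over the whole table, 44.9% of genes were called higher in adults and 47.8% higher in larvae, so most genes differed in one direction or the other. The members' median log2 fold change (adults over larvae) was -0.48, against -0.03 for all genes, and single members ranged from -1.07 to 0.14. The libraries of the 2 stages overlapped for every member, whereas they did not overlap for 11.1% of all genes. Line by line, the members' median difference of adult minus larval line means was below 0 in 41 of 41 lines. It ran from -1.0 in DGRP235, whose larval replicate 1 stands apart, to -0.02 in DGRP142, whose adult replicate 1 stands apart. In every line, the same 24 members were lower in adults.

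These directions depend on the scaling. With library totals in place of TMM factors (a scaling that centres most genes), the median of all genes moved to 0.22 and that of the members to -0.23. The members' median then lay 0.45 below that of all genes, as it did with TMM factors, but 13 members changed sign, 7 were called higher in adults and 52 higher in larvae. Marker genes of tissues and cell states also differed between the stages. The photoreceptor gene norpA had a median of 353 CPM (counts per 1e6 of the TMM-scaled library size) in adults and 21.3 CPM in larvae, the male ejaculatory duct gene Est-6 1115 CPM in adults and 14.7 in larvae, and the midgut protease gene Jon65Aiv 1982 CPM in adults and 20101 in larvae. The male-specific RNA roX1 had medians of 784 CPM in adults and 230 CPM in larvae, and the replication gene Mcm2 6.87 CPM in adults and 32.6 CPM in larvae. Log2 fold changes were -0.88 ± 0.04 for Top2, also active in dividing cells, and -0.14 ± 0.09 for the muscle myosin gene Mhc. In whole animals, fewer cells of a type and less RNA per cell cannot be told apart, and the part of tissue makeup in the members' difference was not tested.

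**Figure D1:**
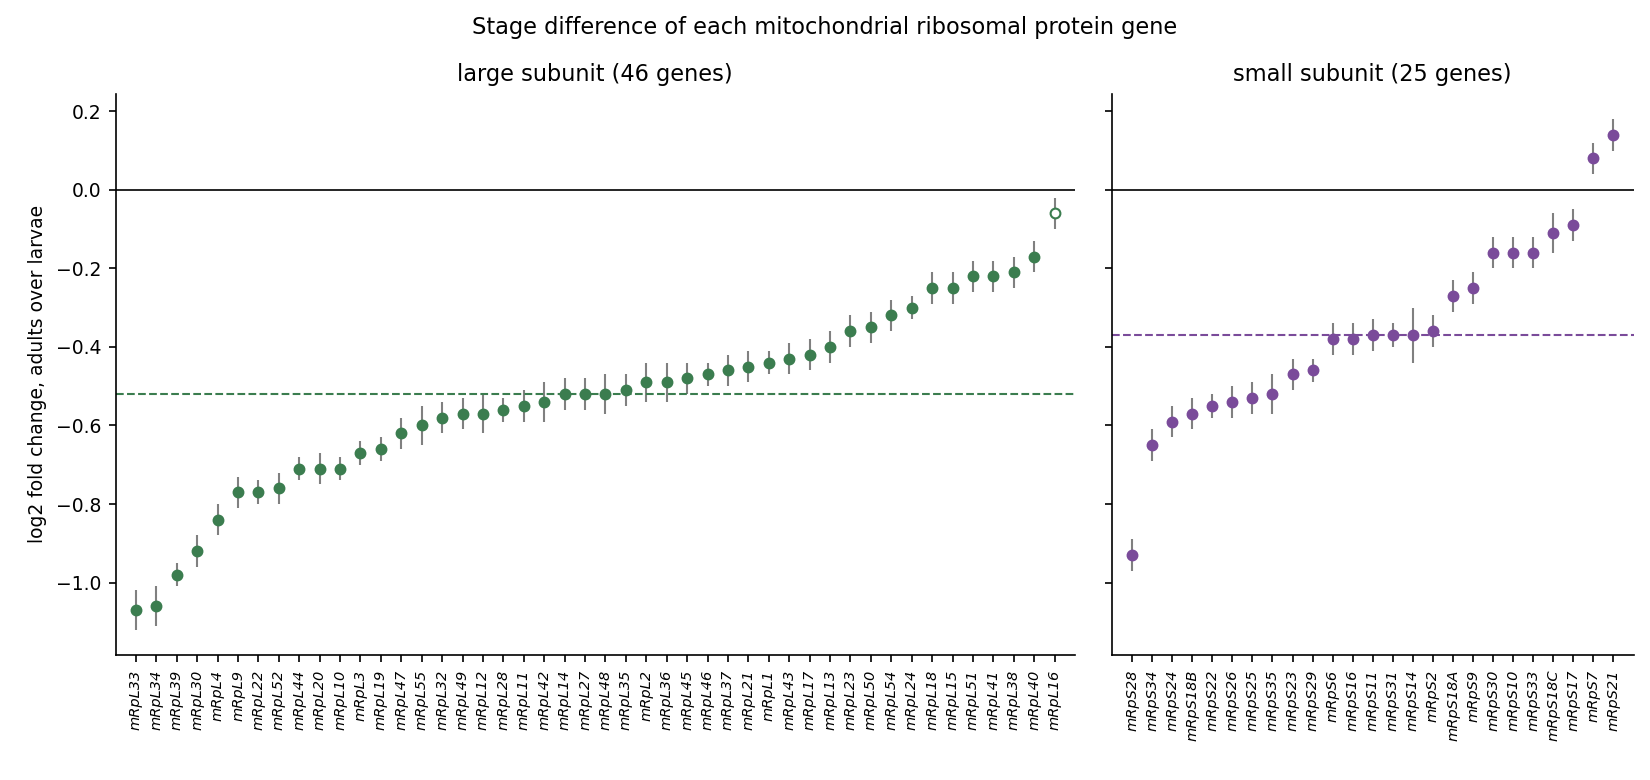
Log2 fold change of adults over larvae for each member (points, with SE bars), large subunit on the left and small subunit on the right, sorted by value; dashed lines are the subunit medians and the open point did not pass the test. The large-subunit median is -0.52 and the small-subunit median -0.37, and the 2 points above 0 are both small-subunit genes.

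Among large-subunit genes, 45 of 46 were lower in adults and the other did not pass. The largest differences were in mRpL33 and mRpL34, both counterparts of small bacterial large-subunit proteins. The gene mRpL33 (FBgn0040907, chromosome X, 4321764 to 4322231, minus strand of BDGP6) had a lowest, median and highest level of 3.77, 11.1 and 20.9 CPM in adults, and of 10.4, 22.0 and 38.1 CPM in larvae. The adult median lay close to the lowest larval library, and its log2 fold change was -1.07 ± 0.05 (SE; adjusted p = 2.36e-40, edgeR). For mRpL34 the levels were 2.02, 6.52 and 10.6 CPM in adults and 6.84, 12.9 and 21.6 CPM in larvae, a log2 fold change of -1.06 ± 0.05.

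The mitochondrion-specific protein gene mRpL39 (FBgn0036462, chromosome 3L, 14997981 to 14999666, minus strand) had 13.3, 17.1 and 30.3 CPM as its lowest, median and highest in adults, and 25.5, 34.1 and 59.0 CPM in larvae. The ranges overlap between 25.5 and 30.3 CPM, and the log2 fold change was -0.98 ± 0.03. The gene mRpL30 had medians of 26.0 CPM in adults and 50.1 CPM in larvae (log2 fold change -0.92 ± 0.04). The stalk proteins, which recruit translation factors to the large subunit, are encoded by mRpL10 and mRpL12, with log2 fold changes of -0.71 ± 0.03 and -0.57 ± 0.05. The gene mRpL44, whose product has a ribonuclease III-like fold, had -0.71 ± 0.03. At the other end, mRpL16 (FBgn0023519, chromosome X, 1890256 to 1891482, plus strand), whose bacterial counterpart lies close to the tRNA sites, had 15.2, 24.4 and 39.3 CPM in adults and 16.7, 25.5 and 41.0 CPM in larvae. These ranges nearly coincide, and its log2 fold change of -0.06 ± 0.04 did not pass (adjusted p = 0.139, edgeR). The mitochondrion-specific mRpL38 and mRpL54 passed with smaller differences, -0.21 ± 0.04 and -0.32 ± 0.04.

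Among small-subunit genes, 2 were higher and 23 lower in adults. The gene mRpS21 (FBgn0044511, chromosome 3R, 13381276 to 13381809, minus strand) had 8.86, 21.1 and 46.5 CPM in adults and 9.10, 19.5 and 33.0 CPM in larvae. Adult line means were above larval ones in 28 of 41 lines, and the log2 fold change was 0.14 ± 0.04 (adjusted p = 0.0017, edgeR), a call that was lost without replicate 2. As a caution, 48.0% of its exon bases overlap CG8870 on the opposite strand, and the strand setting of the counting is not given in the sources used here. The gene mRpS7 (FBgn0032236, chromosome 2L, 10386662 to 10387652, plus strand), for a protein of the head of the small subunit, had 40.9, 61.6 and 91.4 CPM in adults and 31.6, 58.5 and 88.3 CPM in larvae. Its log2 fold change was 0.08 ± 0.04 (adjusted p = 0.0415, edgeR), a call that was lost in several other settings. The log2 fold change was 0.07 without the 3 larval libraries that matched other lines and 0.07 without the 7 that stand apart. It was 0.09 with pool means as replicates, 0.04 without replicate 1 and 0.12 without replicate 2, and passed in none of these settings.

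The lowest small-subunit value was that of mRpS28, with 7.86, 11.7 and 21.1 CPM in adults against 14.9, 22.0 and 34.3 CPM in larvae (log2 fold change -0.93 ± 0.04). The 3 paralogues of the bacterial S18 family were all lower in adults: mRpS18B had -0.57 ± 0.04, mRpS18A -0.27 ± 0.04 and mRpS18C -0.11 ± 0.05 on the log2 scale. In mammals the counterpart of mRpS18A sits in the large subunit and the others in the small one. The gene mRpS29, whose GTP-binding product is known in mammals as a death-associated protein, had -0.46 ± 0.03. The gene mRpS30, whose mammalian counterpart also sits in the large subunit, had -0.16 ± 0.04, as did mRpS10 and mRpS33. For mRpS18C the log2 fold change was -0.34 without replicate 1 and 0.09 without replicate 2. With library totals, mRpS10, mRpS18C, mRpS30 and mRpS33 were above 0 (0.09, 0.14, 0.09 and 0.09), as were mRpL16 (0.19) and mRpL38 (0.05).

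Medians of the log2 fold change were close to each other by position, by family and by gene overlap. Medians by chromosome arm ran from -0.43 on 2R to -0.53 on X. The 41 members numbered as in bacteria had a median of -0.45 and the 30 with later numbers -0.50. The 42 members that share exon bases with another gene, 41 of them with a gene on the opposite strand, had a median of -0.47, and the other 29 had -0.49.

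The balance of large- and small-subunit messages also differed between the stages. The summed CPM of large-subunit genes over that of small-subunit genes had a lowest, median and highest of 1.43, 1.57 and 1.68 in adult libraries, and of 1.65, 1.83 and 2.06 in larval ones. It averaged 1.57 ± 0.0609 in adults (SD, n = 82) and 1.83 ± 0.0793 in larvae (SD, n = 80), and was lower in adults in 41 of 41 lines. Only 10 adult libraries reached the lowest larval value. A ratio within a library does not depend on its scaling. The large- and small-subunit genes differ in number and level, so the ratio counts messages and not particles. The sums hold only genes with these symbols. The small-subunit sum thus lacks tko and bonsai, which encode small-subunit proteins under other symbols, and mRpS5, and the large-subunit sum lacks mRpL53. The ratio was not computed with them.

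The mean ratio was lower in adults in each of 4 other computations, all chosen after the data were seen. Without mRpS7, mRpS9 and mRpS30, which have high counts, it averaged 2.27 ± 0.0979 in adults and 2.49 ± 0.108 in larvae, and was lower in adults in 40 of 41 lines, with 64 adult libraries at or above the lowest larval one. With mRpS18A and mRpS30 counted in the large subunit it averaged 2.00 ± 0.078 in adults and 2.25 ± 0.0918 in larvae. As a ratio of geometric means, which gives each gene the same weight, it averaged 0.916 ± 0.0338 in adults and 1.03 ± 0.0379 in larvae. In these computations, in that order, 42 and 38 adult libraries were at or above the lowest larval one, and adults were lower in 41 of 41 lines. Without the libraries that stand apart the ratio of summed CPM averaged 1.57 ± 0.0604 in 78 adult and 1.83 ± 0.0804 in 77 larval libraries, and was lower in adults in 40 of 40 lines. No test was run on this score over the members.

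**Figure D2:**
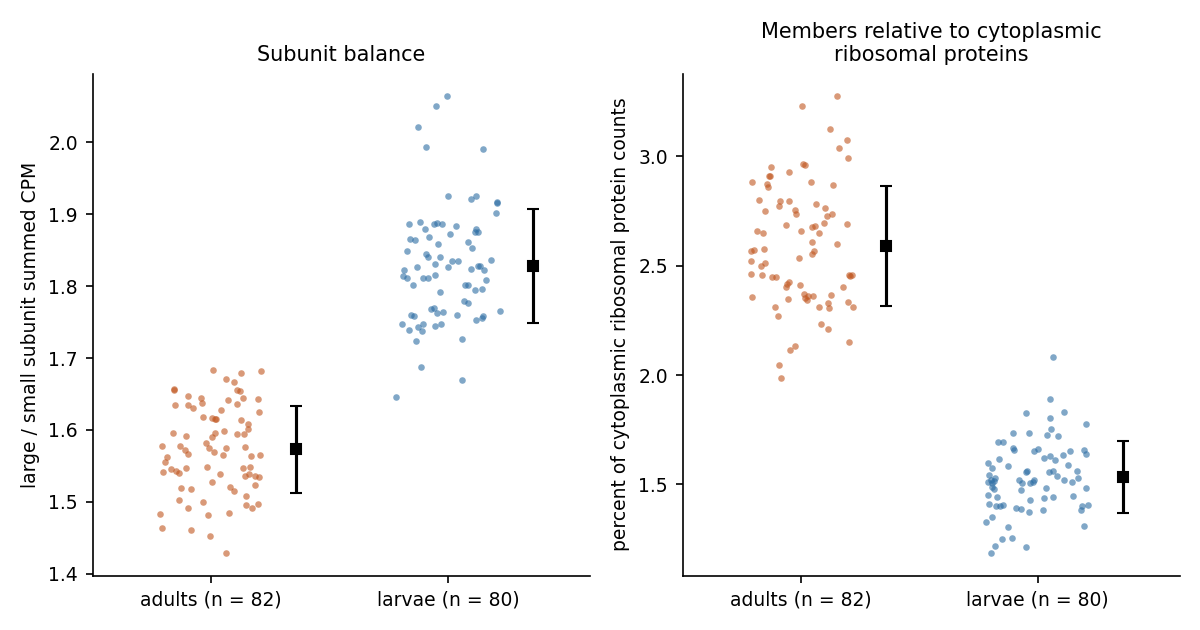
Each point is 1 library; squares and bars are the mean and SD, and the axes do not start at 0. On the left, the summed CPM of large-subunit over small-subunit genes, 1.57 ± 0.0609 in adults and 1.83 ± 0.0793 in larvae; on the right, the members' summed counts as a percent of those of cytoplasmic ribosomal protein genes, 2.59 ± 0.276 in adults and 1.53 ± 0.163 in larvae.

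Other genes of translation and of the mitochondrion were read from the same fit. Cytoplasmic ribosomal protein genes, 86 of them measured, had a median log2 fold change of -1.21, with 2 higher and 84 lower in adults. The members' counts made up 2.59% ± 0.276 of the cytoplasmic ribosomal protein counts in adults (SD, n = 82) and 1.53% ± 0.163 in larvae (SD, n = 80). The nuclear-encoded subunits of oxidative phosphorylation, which share their complexes with the products of the mitochondrial ribosome, had a median of -0.09, with 20 higher, 33 lower and 14 of 67 not passing. The members' summed CPM was 6.81% ± 0.862 of that of these subunits in adults and 8.76% ± 0.984 in larvae.

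Genes that act with the mitochondrial ribosome went both ways. Of 16 genes listed as factors of mitochondrial translation, 6 were higher and 10 lower in adults (median -0.15). That list holds tko and bonsai, which encode small-subunit proteins of the mitochondrial ribosome under other symbols, and both were lower in adults (-0.79 ± 0.04 and -0.43 ± 0.04). By contrast, the elongation factor gene mEFTs averaged 175.2 ± 33.5 CPM in adults and 62.9 ± 10.9 CPM in larvae (SD; log2 fold change 1.47 ± 0.04). OXA1L, for the insertase that places new proteins in the inner membrane, had 1.44 ± 0.04, and mRRF2, for a ribosome recycling factor, 0.93 ± 0.04. Mitochondrial tRNA synthetases and amidotransferase subunits gave 5 higher and 12 lower of 17 (median -0.35), with the largest differences in TrpRS-m (2.88 ± 0.06), CysRS-m (2.36 ± 0.05) and ValRS-m (1.97 ± 0.05). Genes for mitochondrial DNA and RNA maintenance gave 5 higher and 8 lower of 13 (median -0.27), with the protease subunit gene ClpX at 1.78 ± 0.03, mtSSB, for the single-strand DNA binding protein, at -1.72 ± 0.05 and mtDNA-helicase at -1.05 ± 0.05.

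Levels per kilobase of exon allow members to be compared with each other. The median member had 21.7 CPM per kb in adults and 30.9 in larvae, against 18.5 in adults and 17.3 in larvae for all genes. The highest levels were those of mRpS7, at 68.2 CPM per kb in adults and 64.9 in larvae, mRpL28, at 55.3 in adults and 81.6 in larvae, and mRpL30, at 38.6 in adults and 72.9 in larvae. The lowest were those of mRpL21 (9.78 in adults and 13.3 in larvae), mRpS14 (12.7 in adults and 16.8 in larvae) and mRpL11 (12.3 in adults and 18.0 in larvae), by the mean of both stages. The highest member was thus mRpS7 in adults and mRpL28 in larvae.

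Line differences were called for a smaller share of the members than of all genes. The members also had lower counts, with a median of mean CPM of 18.6 in adults and 26.1 in larvae. For all genes it was 47.1 in adults and 41.0 in larvae, and the part of count level in the calls was not tested. In adults, 40 of 71 members differed among lines (edgeR F test over 40 line coefficients, adjusted p under 0.05), against 68.5% of all genes. In larvae 13 did, against 46.6% of all genes. Cytoplasmic ribosomal protein genes were called for 17 of 86 in adults and 11 in larvae. Oxidative phosphorylation subunits were called for 55 of 67 in adults and 8 in larvae. A low share was thus not particular to the members. Of the members, 10 were called at both stages, against 38.4% of all genes, and 28 at neither, against 23.4% of all genes. The median heritability, taken as the share of a library's variance that lies between lines, was 0.25 for the members in adults and 0.102 in larvae, against 0.390 in adults and 0.286 in larvae for all genes. For cytoplasmic ribosomal protein genes it was 0.062 in adults and 0.175 in larvae, and for oxidative phosphorylation subunits 0.387 in adults and 0.085 in larvae. The estimate was higher in adults for 61 of 71 members. Larval estimates kept replicate 2 of DGRP882, DGRP897 and DGRP911, which matched adults of another line better. The larval replicates under these labels need not share a line. Replicates of a line differed by a median of 0.18 log2 units in adults and 0.27 in larvae for the members, close to 0.18 in adults and 0.25 in larvae for all genes. The ratio of the highest to the lowest line mean had a median of 1.94-fold in adults and 1.98-fold in larvae. These spans kept the libraries that stand apart and were not computed without them. The highest adult line mean was that of DGRP142 for 45 members, but for 9 without those libraries.

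Some of these calls changed without the 7 libraries that stand apart. Without them, 29 members were called in adults (66.0% of all genes), 26 of them among the 40, and 6 in larvae (41.5% of all genes), all among the 13. With sequencing pool as a factor, the counts were 43 in adults (70.7% of all genes) and 5 in larvae (30.9% of all genes). With the level of roX1 as a covariate they were 51 in adults (81.1% of all genes) and 11 in larvae (47.9% of all genes). Without the 3 larval libraries that matched other lines, 13 members were called in larvae (47.8% of all genes), 12 of them called before.

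**Figure D3:**
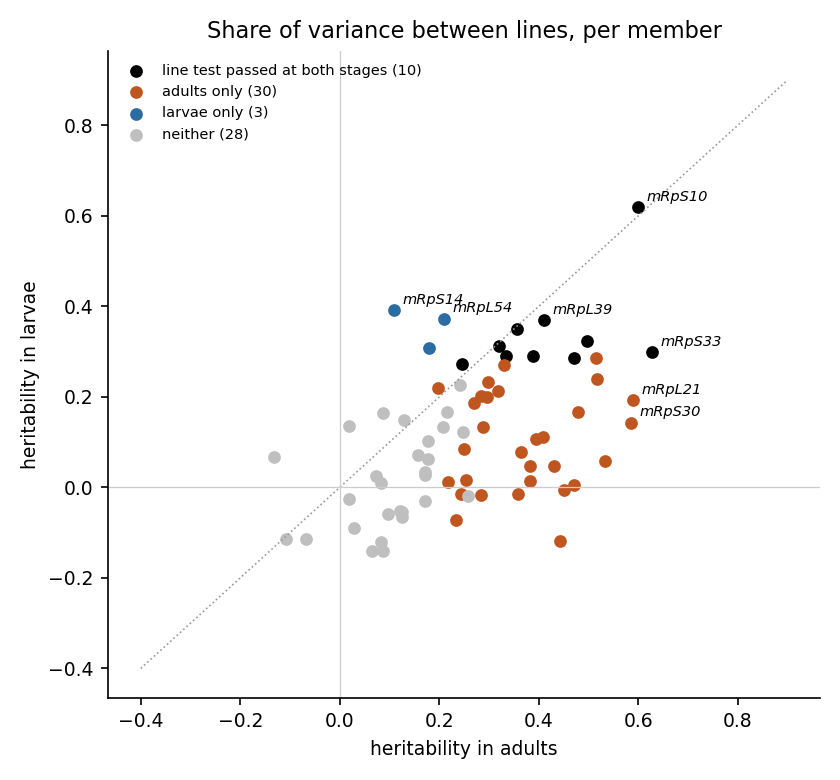
Heritability of each member in adults (x axis) and larvae (y axis), coloured by the stages at which line differences passed; estimates below 0 arise when replicates differ more than lines. Most points lie below the dotted line of equal values, and mRpS10 stands at 0.599 in adults and 0.619 in larvae.

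Heritability was highest in adults for mRpS33, mRpS10, mRpL21 and mRpS30, and highest in larvae for mRpS10, mRpS14, mRpL54 and mRpL39. The gene mRpS10 (FBgn0038307, chromosome 3R, 15229665 to 15230516, plus strand), for a protein of the head of the small subunit, had a heritability of 0.599 ± 0.094 in adults and 0.619 ± 0.083 in larvae (jackknife SE over lines). Its adult libraries ran from 7.69 CPM through a median of 16.1 to 27.1, and its larval libraries from 9.44 through 17.9 to 36.1. Line DGRP380 was high at both stages, with 26.4 and 21.8 CPM in adults and 26.6 and 26.1 CPM in larvae. The call among lines passed at each stage under every alternative that was run, including without the libraries that stand apart.

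The mitochondrion-specific small-subunit gene mRpS33 had a heritability of 0.628 ± 0.105 in adults and 0.299 ± 0.133 in larvae, and mRpS30 had 0.586 ± 0.107 in adults and 0.143 ± 0.213 in larvae. In the other direction, mRpS14 had 0.110 ± 0.183 in adults and 0.391 ± 0.131 in larvae, and mRpL54 0.210 ± 0.176 in adults and 0.373 ± 0.119 in larvae. These SEs are wide, and the difference of a single heritability between stages was not tested. The gene mRpS14 had the widest span of line means among the members, 3.06-fold in adults and 3.99-fold in larvae. Its lowest larval line, DGRP491, rests on 1 library (6.66 CPM), which stands apart. Its highest, DGRP235, had 28.3 and 26.0 CPM, the first from a library that stands apart. In addition, 32.0% of the exon bases of mRpS14 overlap Naa15-16 on the opposite strand, so its counts are uncertain.

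Line means of the 2 stages were then compared, gene by gene, to ask whether lines with high adult expression also had high larval expression. Pearson's r over 41 lines was above 0 for 58 of 71 members, with a median of 0.188, against 0.194 for all genes. It passed for 12 members, each time with a positive r (100000 permutations of the lines, Benjamini-Hochberg over 7414 genes), against 17.2% of all genes called positive, and 12 of 71 is close to that share. The 12 values ran from 0.411 to 0.748. With line means from 1 replicate number alone, 7 members passed without replicate 1 (10.9% of all genes) and 1 without replicate 2 (8.46% of all genes). Without the libraries that stand apart 15 members passed, 11 of them among the 12 (16.0% of all genes). Without the 3 larval libraries that matched other lines 13 passed, all of the 12 among them (18.8% of all genes). The calls did not all hold within clusters of lines: within the largest cluster of lines, 6 of the 12 had an unadjusted permutation p under 0.05.

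The highest value was that of mRpL39, with r = 0.748 over 41 lines (permutation p = 1e-05, the smallest possible; adjusted p = 0.000382) and Spearman's rho = 0.579 (adjusted p = 0.00465). A pair of lines had the highest means at both stages, and stood well above the others in larvae. In adults the next line, DGRP158, had 24.9 and 22.4 CPM, close to DGRP332. Line DGRP57 had 26.6 and 30.3 CPM in adults and 48.9 and 59.0 CPM in larvae, and DGRP332 had 27.0 and 23.8 CPM in adults and 54.8 and 53.2 CPM in larvae, against medians of 17.1 CPM in adults and 34.1 CPM in larvae. Without those lines r was 0.563, and within the cluster of 38 lines it was 0.667 (permutation p = 2e-05). The heritability of mRpL39 was 0.411 ± 0.186 in adults and 0.370 ± 0.199 in larvae.

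For mRpL21 (FBgn0036853, chromosome 3L, 19253290 to 19255061, minus strand), the counterpart of a conserved bacterial large-subunit protein, r was 0.605 (adjusted p = 0.000846) and rho 0.618 (adjusted p = 0.000713). Within its cluster of 35 lines r was 0.606, and 0.579 after the 2 farthest lines were also left out. It was the only member whose r passed under all 10 settings, including with 1 replicate number alone. Adult line means were below larval ones in all 41 lines. For mRpS10, r was 0.511 (adjusted p = 0.00825) and rho 0.560 (adjusted p = 0.00615), and within the cluster of 33 lines r was 0.629 (permutation p = 5e-05).

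The r of mRpL33 and mRpL50 did not reach an unadjusted p under 0.05 within their clusters of lines. The pooled r was 0.515 for mRpL33 (rho = 0.466) and 0.514 for mRpL50 (rho = 0.488), and within the clusters of 29 and 35 lines they were 0.204 (permutation p = 0.288) and 0.292 (permutation p = 0.0884). Without the 2 farthest lines of the cluster r was 0.074 for mRpL33 and 0.411 for mRpL50. Lines for mRpS29, which also passed, fell into 2 clusters of 6 or more, and in the larger, of 26 lines, r was 0.111 (permutation p = 0.59). The 3 members with the lowest values were mRpL38, mRpL13 and mRpL1. For mRpL38, r was -0.213 (adjusted p = 0.38) and rho -0.269 (adjusted p = 0.279), from permutations. For mRpL1, r was -0.150 (adjusted p = 0.566) and rho -0.140 (adjusted p = 0.622), from permutations, and within its cluster of 36 lines r was 0.095. Lines for mRpL13 fell into 2 clusters, and in the larger, of 14 lines, r was 0.294 (permutation p = 0.306). That value covers only part of the lines, whereas mRpL13 ranks among the 3 lowest by r over all lines. The gene mRpL13 shares 35.2% of its exon bases with CG10602 on the same strand.

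**Figure D4:**
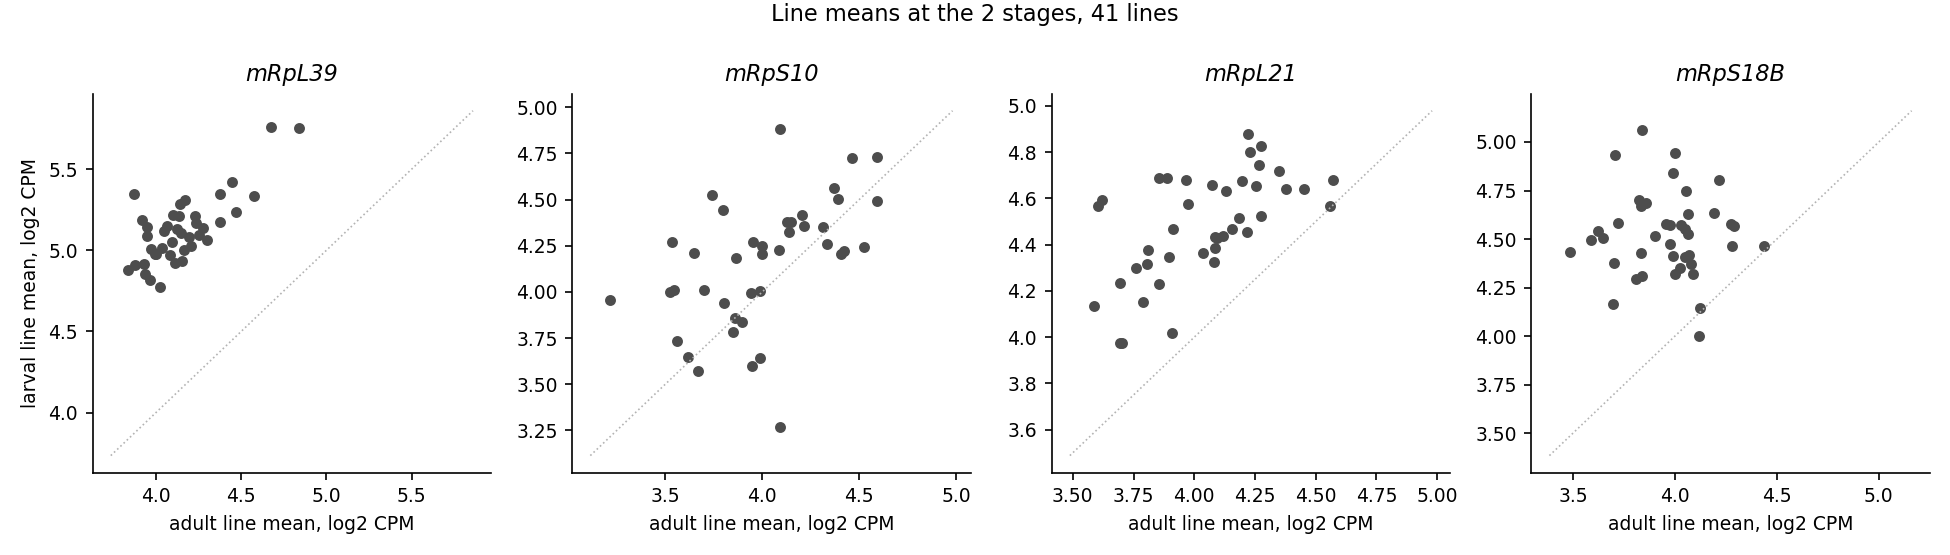
Line means of log2 CPM in adults (x axis) and larvae (y axis), 1 point per line, for mRpL39, mRpS10, mRpL21 and mRpS18B, with dotted lines of equal level. The genes mRpL39, mRpS10 and mRpL21 had r of 0.748, 0.511 and 0.605, and mRpS18B had -0.038; the 2 separate points at the upper right for mRpL39 are DGRP57 and DGRP332.

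The stage difference itself varied among lines for 5 members, against 43.1% of all genes (edgeR F test over 40 interaction coefficients). They were mRpS18B (adjusted p = 0.00431), mRpS33 (0.0255), mRpS10 (0.0308), mRpL41 (0.0441) and mRpS30 (0.0444), 4 of them in the small subunit. For mRpS18B (FBgn0032849, chromosome 2L, 20096329 to 20097253, minus strand), DGRP142 had the highest adult mean, with 24.6 and 18.8 CPM, and DGRP235 the highest larval mean, with 35.7 and 30.9 CPM. The first value of each pair comes from a library that stands apart. Stage medians of mRpS18B were 15.5 CPM in adults and 22.8 CPM in larvae, and its r was -0.038 although its adult heritability was 0.515 ± 0.097. For mRpS30, DGRP391 led in adults (89.7 and 77.6 CPM) and DGRP181 was among the highest in larvae (99.6 and 95.6 CPM), against medians of 62.9 CPM in adults and 71.3 CPM in larvae. Without the 7 libraries that stand apart only mRpS10 passed (adjusted p = 0.0416, edgeR), against 37.6% of all genes. Without the 3 larval libraries that matched other lines 6 passed (44.7% of all genes): 4 of the 5, without mRpL41, and also mRpL36 (adjusted p = 0.0457, edgeR) and mRpS7 (0.0291). The names mRpL36 and mRpL41 were chosen after their values were seen.

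Within a stage, the members moved together over lines. The median pairwise r over line means was 0.338 in adults and 0.347 in larvae (2485 pairs), against -0.004 in adults and -0.003 in larvae for all pairs of genes. Pairs of 1 large- and 1 small-subunit gene gave 0.332 in adults and 0.347 in larvae, close to pairs within the large subunit (0.342 in adults, 0.345 in larvae) and within the small subunit (0.330 in adults, 0.350 in larvae). Cytoplasmic ribosomal protein genes gave higher values, 0.629 in adults and 0.564 in larvae, and so did oxidative phosphorylation subunits, 0.711 in adults and 0.605 in larvae. The members' r with oxidative phosphorylation subunits was close to that among themselves, 0.321 in adults and 0.379 in larvae, and with cytoplasmic ribosomal protein genes it was 0.239 in adults and 0.320 in larvae. Without the libraries that stand apart, these values were 0.224 in adults and 0.344 in larvae with oxidative phosphorylation subunits, and 0.124 in adults and 0.272 in larvae with cytoplasmic ribosomal protein genes. Among the members themselves the median was then 0.182 in adults and 0.318 in larvae, below that with oxidative phosphorylation subunits. All of these values are descriptions over genes measured in the same libraries, with no test.

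**Figure D5:**
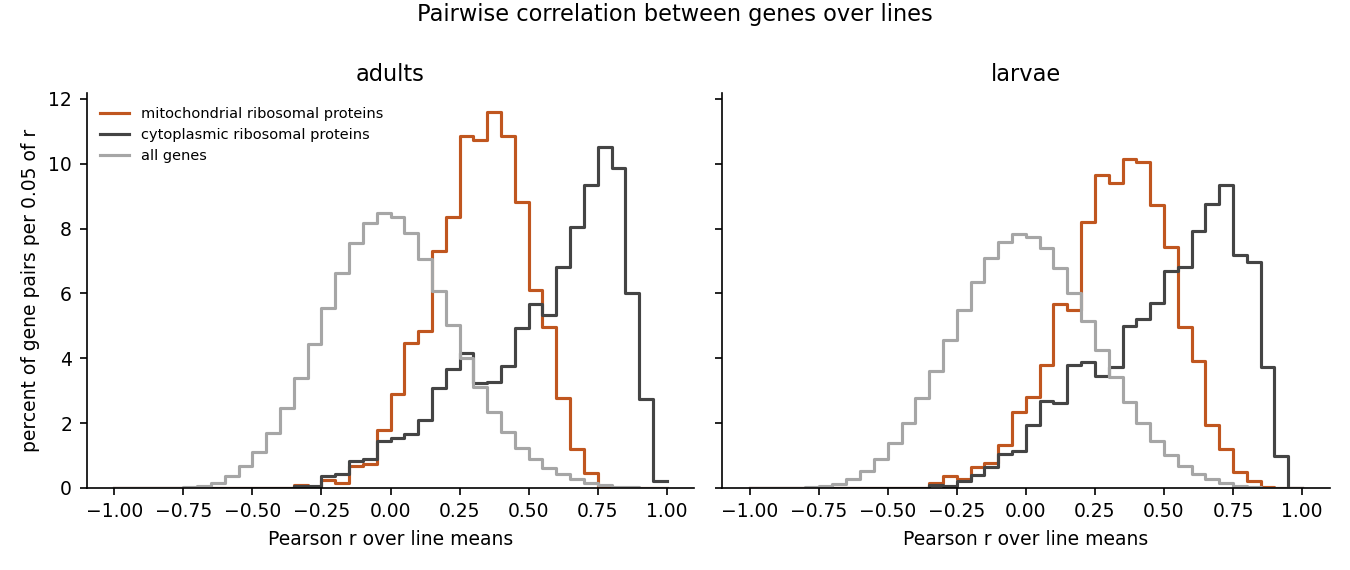
Percent of gene pairs in each step of 0.05 of Pearson's r over line means, for the members, cytoplasmic ribosomal protein genes and all genes, in adults (left) and larvae (right). The medians for the members are 0.338 in adults and 0.347 in larvae, between those of all genes and of cytoplasmic ribosomal protein genes.

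Shared movement was also present between replicate libraries labelled with the same line. The differences between replicates 1 and 2 of a line gave a median pairwise r of 0.486 in adults and 0.575 in larvae. For all genes it was -0.009 in adults and -0.005 in larvae. Oxidative phosphorylation subunits gave 0.677 in adults and 0.722 in larvae, and cytoplasmic ribosomal protein genes 0.731 in adults and 0.527 in larvae. Shared movement between replicates was thus not particular to the members. Line cancels in these differences where both libraries belong to the labelled line. It need not cancel for larvae of DGRP882, DGRP897 and DGRP911, whose replicate 2 matched adults of another line better. The differences also kept the libraries that stand apart, and were not computed without them. Without the 7 libraries that stand apart, the value over line means was 0.182 in adults and 0.318 in larvae. With the level of roX1 removed it was 0.284 in adults and 0.346 in larvae, and with pool means removed 0.324 in adults and 0.398 in larvae. The line with the highest adult mean was DGRP142 for 45 of 71 members, but for 9 without its replicate 1 and the others that stand apart. Its summed CPM over all members was 2413 in replicate 1 and 1679 in replicate 2, against an adult median of 1487. In larvae DGRP235 led for 28 members, and for 25 without the libraries that stand apart, with 3006 and 2508 in its replicates against a larval median of 2070.

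Members differed in how far they followed the rest, over line means that kept the libraries that stand apart. The r of each member with the others was not computed without those libraries. Without them the median pairwise r among members was 0.182 in adults, against 0.338 with them. The r of a member with the sum of the others had a median of 0.596 in adults and 0.576 in larvae and was above 0 for all 71 at both stages. It was highest for mRpL42 in adults (0.840) and for mRpS25 in larvae (0.841). The lowest in adults was mRpL39 (0.170), the member with the highest r across stages, and mRpS30 was low at both stages (0.255 in adults and 0.287 in larvae). The stalk gene mRpL12, by contrast, followed the others (0.777 in adults and 0.625 in larvae) while its edgeR line test passed in neither adults (adjusted p = 0.695) nor larvae (adjusted p = 0.673); with roX1 as a covariate it passed in adults (adjusted p = 0.0441).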

How the data were processed

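PolyA-selected, stranded mRNA libraries of 82 adult and 82 larval samples were deposited as 1 table of raw counts per gene, made by the authors, for 7414 genes. The tools FastQC, Trimmomatic and STAR and the builds BDGP6 and dm6 are listed per the submitters' processing notes, which give no versions; the counting tool and its strand setting are not given in the sources used here. The lowest count in the table is 11, so a gene silent in any library is absent. Names and coordinates come from the Ensembl BDGP6 annotation, which matched 7349 identifiers and not the other 65.

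Groups came from the sample labels. The members, lists, tests and most alternatives were chosen with earlier results of these data known. Genes named with values were the largest stage differences that passed (up to 5 each way, of which only 2 were positive), exceptions to the majority, the 4 highest heritabilities per stage, the 4 highest and 3 lowest r, the 3 highest and 3 lowest levels per kb, and members named by role; other names were chosen after their values were seen.

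Counts were fitted over all genes in edgeR 4.0.16 under R 4.3.3 with TMM factors and line as a block; a filter of 1 CPM in 41 libraries of a stage removed 0 genes. SEs of fold changes come from the F statistic. Line means used log2 CPM with a prior count of 2; clusters of lines were linked at a distance of 0.15 of the range. The plan named CPM of the total count; printed CPM use TMM-scaled sizes so that they follow the fold changes. On that planned scale the members' summed CPM averaged 1655 ± 212 in adults and 1905 ± 227 in larvae (SD, n = 82 and 80), against 1514 ± 162 in adults and 2084 ± 284 in larvae on the TMM scale. DESeq2 1.42.0 and limma 3.58.1 were alternatives. On simulated counts for 7414 genes, the stage fit recovered 98% of 50 genes changed by 0.25 log2 units and the adult line fit 96% of 50 genes with a line SD of 0.3 and 12% of 50 with 0.15.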

Additional observations from a re-analysis of the deposited data

Results flagged for a closer look

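The stage difference of 5 members differed among lines by a test of the line-by-stage interaction (edgeR quasi-likelihood F test, Benjamini-Hochberg adjusted over all genes), against 43.1% of all genes. The adjusted p was 0.00431 for mRpS18B, 0.0255 for mRpS33, 0.0308 for mRpS10, 0.0441 for mRpL41 and 0.0444 for mRpS30. For mRpS18B, adults were below larvae in 40 of 41 lines, so the lines differed mainly in the size of the difference. For mRpS10, mRpS33, mRpL41 and mRpS30 adults were above larvae in 12, 13, 12 and 15 of 41 lines. Without the 7 libraries that stand apart, 1 of the 5 passed (mRpS10), against 37.6% of all genes, and the part of those libraries in the other calls was not tested further.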

How the results depend on the processing

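Under DESeq2 size factors, the DESeq2 Wald test and all 164 columns, the counts were 2 higher in adults and 68 higher in larvae, as in the fit reported. Replicate numbers did not pair samples across stages: deviations of same-numbered adults and larvae of a line had a median r of 0.049 over 39 lines, from -0.371 to 0.304. With line by replicate number as a block, the stage counts were again 2 higher in adults and 68 in larvae, all 70 calls shared. A replicate block as a term of the line fits gave 48 members with line differences in adults (75.5% of all genes), 16 in larvae (47.3%) and 7 with an interaction (47.3%). The count higher in adults was 1 with pool means as replicates, 1 without 3 larval libraries and 1 without libraries that stand apart, 7 with library totals, and 0 to 1 without a replicate number. With library totals the median was -0.23, and mRpL16 (0.19), mRpL38 (0.05), mRpS10 (0.09), mRpS18C (0.14), mRpS30 (0.09) and mRpS33 (0.09) turned positive; mRpS18C ranged from -0.34 to 0.09 without a replicate number. Line differences in larvae were called for 5 members with pool as a factor (30.9% of all genes) and 6 without libraries that stand apart (41.5%), where the interaction passed for 1 (37.6%). Correlations across stages passed for 7 members without replicate 1 (10.9% of all genes) and 1 without replicate 2 (8.46%), with medians over the members of 0.214 and -0.004; line means then rest on 1 library each. Median pairwise r was 0.486 in adults and 0.575 in larvae over replicate differences, and 0.182 in adults without libraries that stand apart. Where no construction is named, the cause was not tested. Lines in larvae are measured less precisely than in adults, and a line SD of 0.15 log2 units was seldom recovered in simulated adults.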
